A study of Mus musculus with 15 samples.

Results

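MicroRNA hairpins were compared between wild-type (WT) cells of the neural crest lineage at embryonic day 8.5 (E8.5) and WT whole embryos at E7.5. A hairpin was kept where at least 2 of these 5 libraries held 10 or more normalized counts, which left 244 of the 1226 hairpins listed. All libraries came from mice of the C57BL/6 strain. The 2 E7.5 WT libraries were made from whole embryos, which the labels assign to embryonic pluripotency in vivo. The 3 E8.5 WT libraries were made from Wnt1-Cre+ cells, which the labels assign to neural crest before and after migration. The Wnt1-Cre transgene is active in dorsal cells of the neural tube, from which the crest arises, and no single microRNA defines that lineage. Per the labels' protocols, E8.5 cells were sorted straight into Trizol-LS, while E7.5 embryos were put into Trizol-LS, frozen and stored. Stage, cell source and handling therefore changed together and cannot be told apart. The same stages were sampled in miR-302 knockout (KO) mice with 2 E7.5 and 4 E8.5 libraries, from the same sources. Sox10+ sorted cells at E9.5, with 2 WT and 2 KO libraries, entered the fit as well. The labels name no separate litters or pools, so the p-values reflect only how these samples vary, which may be technical.

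A microRNA is cut from a hairpin precursor and pairs with messenger RNAs mainly through its seed, bases 2 to 8 from its 5′ end. Hairpins with the same seed are expected to share many targets. The clusters of miR-290 and of miR-302 with miR-367 are known from mouse pluripotent cells, and the let-7 family from differentiating cells, where the protein Lin28 restrains it. The neural crest arises at the border of the neural plate, and microRNAs of the Hox clusters are known to follow the position of cells along the body axis.

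The sequences shown are the mature arms of the hairpins on which the results turn, taken from RefSeq on build GRCm38.p6 and written 5′ to 3′ with the seed in capitals. RefSeq entries matched 207 of the 244 hairpins. The deposited counts are per hairpin, so the arm that was sequenced could not be separated. The first set carries the seed shared by the miR-302 and miR-290 clusters, of which the former stayed abundant at E8.5 and the latter fell.
miR-302b-3p: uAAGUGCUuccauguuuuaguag
miR-302d-3p: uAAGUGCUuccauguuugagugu
miR-291a-3p: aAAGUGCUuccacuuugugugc
miR-294-3p: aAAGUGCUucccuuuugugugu
miR-295-3p: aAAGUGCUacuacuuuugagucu

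The second set carries the miR-92 seed, whose hairpins held more of the reads of each E8.5 library than any other seed group described here. It joins a hairpin that rose, mir-92b, with mir-367 of the miR-302 cluster.
miR-92a-3p: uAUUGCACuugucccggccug
miR-92b-3p: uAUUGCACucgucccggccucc
miR-25-3p: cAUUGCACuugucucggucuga
miR-363-3p: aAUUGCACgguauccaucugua
miR-367-3p: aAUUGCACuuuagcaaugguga

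The third set holds arms of mir-335, which rose, and of the 3 Hox-cluster hairpins, which fell. miR-10a-5p and miR-10b-5p share a seed, and the other 2 arms each have their own.
miR-335-5p: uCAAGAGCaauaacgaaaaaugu
miR-10a-5p: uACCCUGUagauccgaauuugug
miR-10b-5p: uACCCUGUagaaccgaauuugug
miR-196b-5p: uAGGUAGUuuccuguuguuggg

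The last set shows 3 seeds of groups whose called members were all lower at E8.5, the let-7, miR-181 and miR-465 families. Of all 50 called members 46 were lower, so this does not set these families apart.
let-7e-5p: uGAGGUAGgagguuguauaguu
miR-98-5p: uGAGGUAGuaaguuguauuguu
miR-181a-5p: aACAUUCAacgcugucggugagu
miR-181b-5p: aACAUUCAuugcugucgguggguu
miR-465b-5p: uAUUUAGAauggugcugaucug
miR-465c-5p: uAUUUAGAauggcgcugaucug

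Hairpin reads numbered 133638 and 190416 in the E7.5 libraries, and 24465, 124775 and 179772 in the E8.5 libraries. The deposited normalized counts summed to 69474 and 69686 at E7.5 and to 44959, 42268.5 and 46255 at E8.5. The same normalized count is therefore a larger share of reads at E8.5, and shares rise more than the counts tested. The first principal component of all hairpins tested separated the stages (78.5% of the variance) and the second the 2 E7.5 libraries (12.05%). The E7.5 pair was also the less alike: 35 members were over 4-fold apart, against 2 to 6 between pairs of E8.5 libraries. Of those 35, 23 were higher in E7.5 replicate 1 and 12 in replicate 2. Shares of reads carry a 95% exact binomial interval of at most ± 0.618 percentage points in E8.5 replicate 1 and ± 0.275 in the others, which covers counting error only.

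Far more hairpins fell than rose between the E7.5 embryo and the E8.5 lineage. Of the 244 members, 50 passed the test (20.5%), 4 of them higher and 46 lower at E8.5. Over all hairpins tested, 18.4% passed, 1.34% higher and 17.1% lower, so the share among the members was near that of the table. The test was limma on log2(normalized count + 1) with Benjamini-Hochberg adjustment over all tested hairpins and a threshold of 0.05. All fold changes below are on that log2 scale with their standard error (SE), as E8.5 against E7.5. The E8.5 and E7.5 libraries did not overlap for 54.9% of the members, against 52.5% of all tested hairpins, and all 50 called members were among them. Counting numbered copies of a hairpin once, 45 were called. Of the 46 lower, 29 reached 10 normalized counts in E7.5 libraries alone, as did 33 members in all, and 1 of the 4 higher did so in E8.5 libraries alone. Those hairpins became members through the stage in which they were high, so their calls are partly fixed by that choice. Among the members that reached 10 at both stages, 3 were called higher and 17 lower.

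The split between higher and lower depended on the scaling. On the deposited scale the median log2 fold change was -0.52 over the members and -0.48 over all tested, with 4 higher and 51 lower among those tested (7.27% higher). TMM scaling moved the median of all by 0.53 to 0.05 and gave 9 higher and 38 lower (19.1% higher). Scaling to the library sum moved it by 0.59 to 0.11 and gave 14 higher and 38 lower (26.9% higher). Fold changes near the median of -0.48 thus have no fixed sign, and each is to be read against that median. With 1 E7.5 library left out the lone E7.5 library is assumed to vary like the other groups. Without E7.5 replicate 1, 34 hairpins passed, all lower, and without replicate 2, 51 passed, 7 of them higher.

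**Figure D1:**
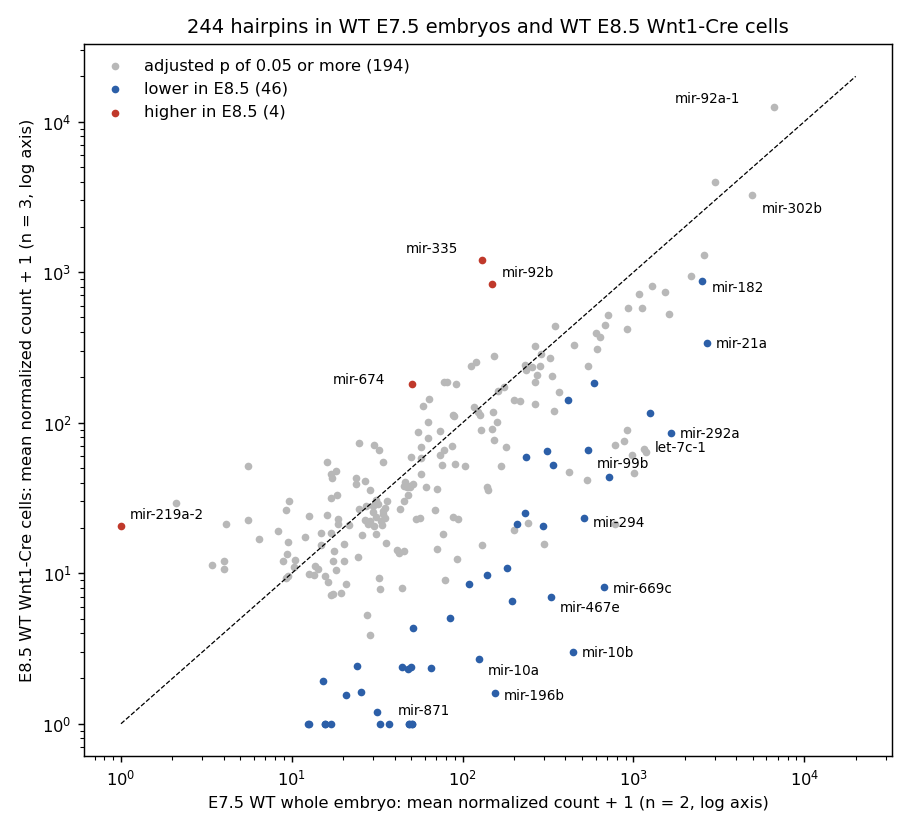
Mean normalized count + 1 of the 244 hairpins in WT E7.5 whole embryos (x axis, n = 2) and WT E8.5 Wnt1-Cre cells (y axis, n = 3), both on log axes; each point is a hairpin, coloured by the limma test, and the dashed line marks equal means. The 46 blue hairpins lie below the line and the 4 red ones above it.

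Of the hairpins that rose, the most abundant at E8.5 was mir-335, encoded at chr6:30741299-30741396 (plus strand) in an intron of Mest, an imprinted gene. It stood at 79.5 and 176 normalized counts in the E7.5 embryos and at 1117, 1225 and 1262 in the E8.5 cells. Every E8.5 library lay far above both E7.5 libraries, at means of 128 ± 68.5 (SD, n = 2) and 1202 ± 75.3 (n = 3). Its log2 fold change was 3.33 ± 0.68 (adjusted p = 0.00249). By mean normalized count it moved from rank 84 to rank 5, and its mean share of reads went from 0.184% to 2.704%. Without E7.5 replicate 1 the change was 2.76 and the adjusted p 0.0539.

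mir-92b, known from neural progenitors, is encoded at chr3:89227116-89227198 (minus strand), between genes. It stood at 102 and 194.7 normalized counts at E7.5 and at 781, 867 and 836 at E8.5. The groups were again well apart, at 148 ± 65.6 (n = 2) and 828 ± 43.5 (n = 3), and the log2 fold change was 2.54 ± 0.82 (adjusted p = 0.0443). Leaving out any 1 of the 5 libraries ended the call (adjusted p = 0.336 without E7.5 replicate 1, 0.0691 without replicate 2, 0.0980, 0.104 and 0.0982 without E8.5 replicates 1, 2 and 3).

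mir-674 lies between genes at chr2:117185127-117185226 (plus strand). It had 52.0 and 47.2 normalized counts at E7.5 and 186, 207 and 149 at E8.5. The E7.5 libraries were close together and all E8.5 libraries above them. The log2 fold change was 1.83 ± 0.50 (adjusted p = 0.0179), and the call ended without either E7.5 library or without E8.5 replicate 1 or 2 (adjusted p = 0.0757, 0.0749, 0.0552 and 0.0730).

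mir-219a-2, the other hairpin that rose, was chosen after its values were seen. miR-219a is known from neural progenitors and oligodendrocyte precursors, and this copy lies at chr2:29845631-29845727 (minus strand). It had 0 reads in both E7.5 embryos and 20.2, 23.7 and 14.4 normalized counts at E8.5, and is the called hairpin that became a member through E8.5 alone. Set against a floor of 3 reads over the E7.5 group, it was at least 28.8-fold higher (adjusted p = 0.00521). The adjusted p was 0.0539 without E7.5 replicate 1.

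**Figure D2:**
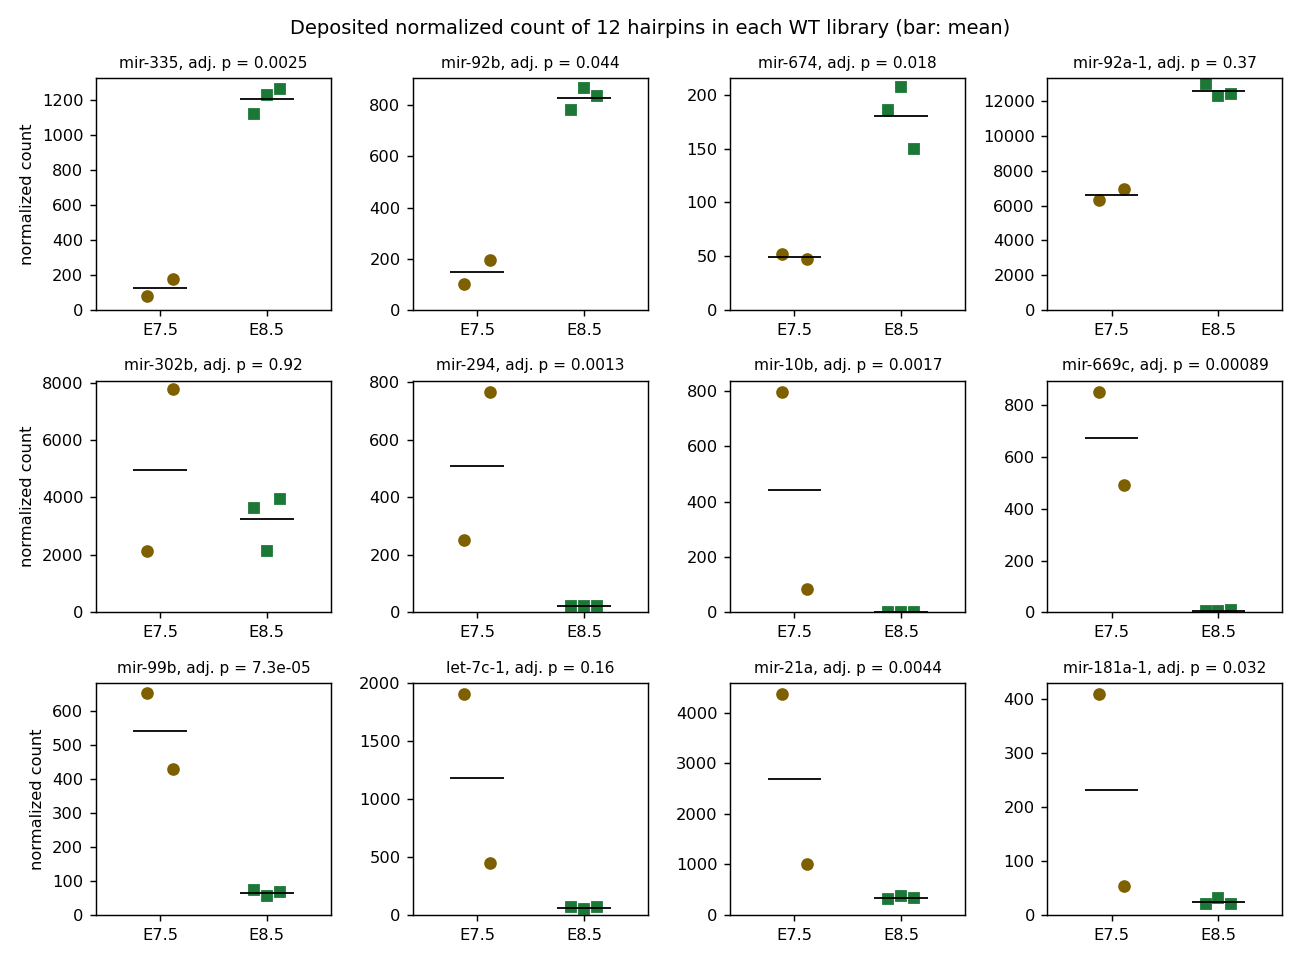
Deposited normalized counts of 12 hairpins (y axis) in each of the 2 WT E7.5 libraries (circles) and 3 WT E8.5 libraries (squares), with bars at the group means and limma's adjusted p above each panel. The E8.5 libraries lie close together, whereas mir-302b, mir-10b, let-7c-1, mir-21a and mir-181a-1 differ severalfold between the 2 E7.5 libraries.

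Hairpins with the miR-92 seed took a larger part of the E8.5 libraries than of the E7.5 libraries. These 7 hairpins (mir-25, mir-32, mir-363, mir-367, mir-92a-1, mir-92a-2 and mir-92b) held 13.1% and 16.1% of reads at E7.5 and 39.7%, 41.4% and 39.2% at E8.5. The largest was mir-92a-1, the last hairpin of the miR-17-92 cluster, which promotes proliferation and lies in exons of Mir17hg (chr14:115044427-115044506, plus strand). It stood at 6328 and 6943 normalized counts at E7.5 and at 12976, 12323 and 12436 at E8.5. Its libraries did not overlap, but its log2 fold change of 0.92 ± 0.62 did not pass (adjusted p = 0.370). As a share of reads it was 9.11% and 9.96% at E7.5 and 28.9%, 29.2% and 26.9% at E8.5. Of 17 alternative fits, mir-92a-1 passed only in those on the 5 libraries (adjusted p = 0.0173) and on WT alone (0.0123). It did not pass in edgeR, in DESeq2, or under TMM or library-sum scaling.

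The copy mir-92a-2 shares its mature sequence with mir-92a-1, so reads may be split between them in ways the counts do not show. It had 2353 and 3651 normalized counts at E7.5 and 3683, 3866 and 4432 at E8.5 (log2 fold change 0.44 ± 0.38, adjusted p = 0.522). mir-25, of the paralogous cluster within Mcm7, had 89.9 and 149 against 289, 239.5 and 228 (1.11 ± 0.38, adjusted p = 0.0602). It passed under TMM (adjusted p = 0.0336) and library-sum scaling (0.00571). In the list of the miR-17-92 cluster and its paralogs, 14 of 15 members were above 0 and 0 passed in limma (5 at an unadjusted p under 0.05, 0 in edgeR and 2 in DESeq2), with a median of 1.11 against -0.48 over all tested. In KO libraries, 11 of the 15 passed as higher, against 10.4% of tested hairpins, and the difference between the genotypes passed for none of the 15. mir-17 of this list had 23.4 and 101 normalized counts at E7.5 and 101, 175 and 151 at E8.5, with the highest E7.5 and lowest E8.5 libraries level.

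The miR-302 hairpins did not separate the stages. The cluster lies at chr3:127545228-127545807 (plus strand) on the strand opposite Larp7, within one of its introns. mir-302b, its most abundant member, stood at 2154 and 7776 normalized counts at E7.5 and at 3640.5, 2145 and 3935 at E8.5. The E8.5 libraries lay within the range of the 2 E7.5 libraries or at its lower end. Its log2 fold change was -0.39 ± 1.02 (adjusted p = 0.920).

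mir-302d had 1096 and 4102 normalized counts at E7.5 and 1364, 1044 and 1478 at E8.5 (log2 fold change -0.73 ± 0.73, adjusted p = 0.605). mir-302a had 645 and 1926 against 838, 604 and 967 (-0.50 ± 0.80, adjusted p = 0.814), and mir-302c 106.05 and 422 against 169, 82.3 and 142.03 (-0.75 ± 0.94, adjusted p = 0.725). In each of the 4 hairpins the higher of the E7.5 embryos, replicate 2, lay above all E8.5 libraries and the other lay within their range. Without that library all 4 changes were above 0, from 0.23 to 0.54, and under TMM mir-302a and mir-302b were at 0.06 and 0.17. Summed, miR-302a to miR-302d held 5.76% and 20.4% of reads at E7.5 and 13.4%, 9.17% and 14.1% at E8.5.

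mir-367, the last hairpin of the same cluster, had 41.1 and 98.8 normalized counts at E7.5 and 14.7, 8.81 and 16.98 at E8.5. Its libraries did not overlap, and the log2 fold change was -2.21 ± 1.26 (adjusted p = 0.290). The share of reads in 8 hairpins with bases 2 to 7 of the miR-302 seed on either arm was 6.19% and 20.4% at E7.5 and 11.3%, 7.74% and 11.9% at E8.5. These 8 leave out mir-302a, whose 3p arm the RefSeq table does not give, and mir-302c, whose 3p arm starts 1 base later there. The mean difference was -2.98 percentage points (exact permutation p = 0.8, two-sided), and -5.29 with these and mir-292a added (also 0.8). With 2 against 3 libraries no p below 0.2 can be had, so this design cannot reach 0.05. The number of hairpins that held 50% of reads was 16 and 10 at E7.5 and 5, 6 and 5 at E8.5, with no overlap between the groups (exact permutation p = 0.2, the smallest possible).

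**Figure D3:**
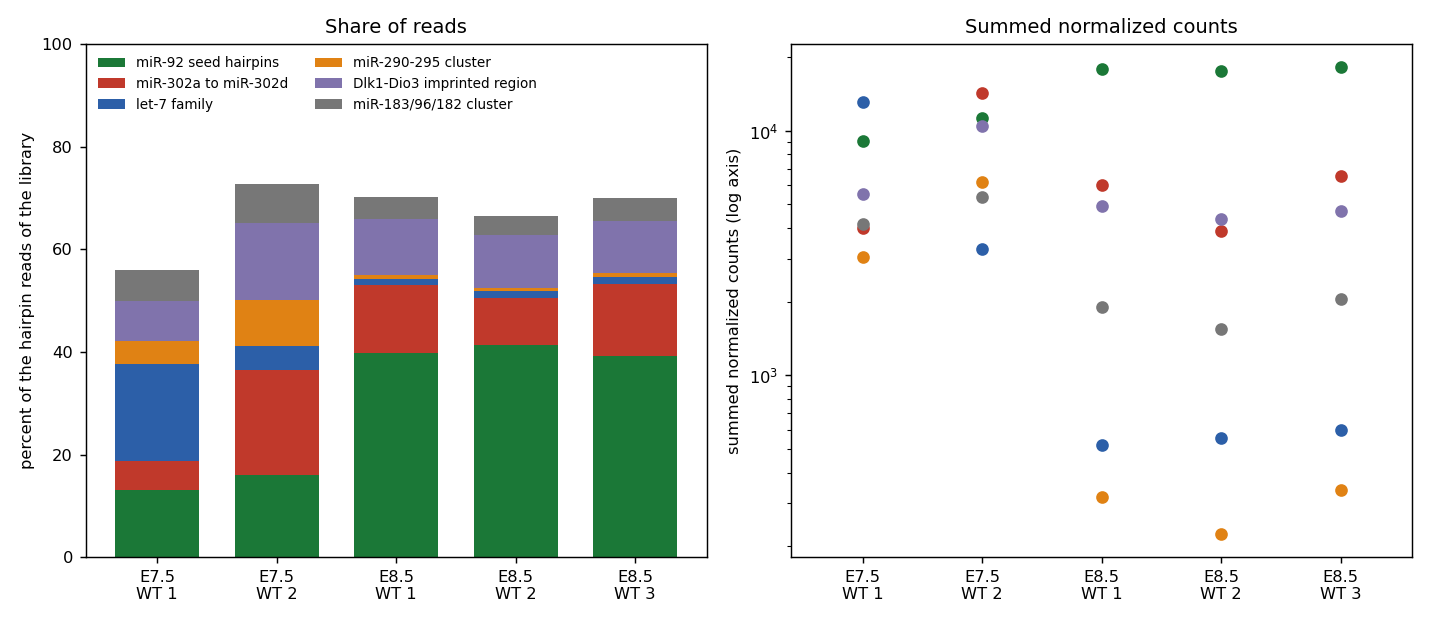
Left, percent of each WT library's hairpin reads (y axis) in 6 groups, stacked by library; right, the summed normalized counts of the same groups on a log axis, 1 point per library. Green, the miR-92 seed hairpins, takes 39.2% to 41.4% of the 3 E8.5 libraries, while orange (the miR-290 cluster) and blue (let-7) are smaller there than in both E7.5 libraries.

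The miR-290 cluster, the main microRNA cluster of mouse embryonic stem cells, fell in all 7 members, with a median log2 fold change of -4.0. It lies at chr7:3218626-3220841 (plus strand). Its members summed to 3053 and 6144 normalized counts at E7.5 and to 318, 224 and 339 at E8.5. mir-292a, the most abundant at E7.5, had 1194 and 2106 at E7.5 and 97.4, 57.9 and 98.5 at E8.5, with all E8.5 libraries far below both embryos. Its log2 fold change was -4.25 ± 0.75 (adjusted p = 8.94e-04).

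mir-293 had 816 and 1671 normalized counts at E7.5 and 126.8, 88.1 and 129 at E8.5 (log2 fold change -3.36 ± 0.76, adjusted p = 0.00474). mir-295 had 481 and 956 against 40.4, 32.2 and 54.5 (-4.0 ± 0.67, adjusted p = 5.66e-04). mir-294 had 253 and 768 against 22.05, 22.02 and 23.2 (-4.24 ± 0.80, adjusted p = 0.00132). In each, E7.5 replicate 2 was the highest library, and the 3 E8.5 libraries were close together.

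mir-291a had 212 and 377.3 normalized counts at E7.5 and 18.4, 18.97 and 21.9 at E8.5 (log2 fold change -3.78 ± 1.11, adjusted p = 0.0272). mir-291b had 75.9 and 202 against 12.9, 4.07 and 9.26 (-3.80 ± 1.22, adjusted p = 0.0443). Both calls ended when any 1 library was left out, with adjusted p between 0.0634 and 0.149 for mir-291a and between 0.0701 and 0.219 for mir-291b, and under TMM (0.0725 and 0.0912). The mir-293 call ended without E7.5 replicate 2 (adjusted p = 0.0642). mir-291a, mir-294 and mir-295 carry the same seed as miR-302b and miR-302d, whose hairpins did not pass.

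All 3 Hox-cluster hairpins among the members fell, with the lowest median log2 fold change of the lists, -6.07, and were nearly absent from the E8.5 cells. All 3 became members through E7.5 alone. mir-10b lies in introns of Hoxd3 and Hoxd4 (chr2:74726070-74726137, plus strand). It had 797 and 84.5 normalized counts at E7.5 and 1.84, 2.37 and 1.80 at E8.5. The embryos differed widely from each other, and both lay far above the E8.5 cells, where all libraries together held 15 reads. Its log2 fold change was -6.45 ± 1.25 (adjusted p = 0.00170), and the ratio of pooled values was 186, with an exact interval of 113 to 334 that covers counting error only.

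mir-196b, which lies in an exon of Hoxa9 (chr6:52230081-52230165, minus strand), had 274 and 31.8 normalized counts at E7.5 and 1.84, 0 and 0 at E8.5. Only 1 read was counted at E8.5, against 614 at E7.5. The log2 fold change was -6.07 ± 0.89 (adjusted p = 1.59e-04), and the pooled ratio of 974 had an interval of 174 to 38516, again for counting error only.

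mir-10a, next to the Hoxb genes at chr11:96317165-96317274 (plus strand), had 123 normalized counts in both embryos. At E8.5 it had 0, 4.07 and 1.03, and the log2 fold change was -5.83 ± 1.36 (adjusted p = 0.00578). Unlike its relative mir-10b, it was level in the 2 embryos. Without E7.5 replicate 1 the adjusted p of mir-10a and of mir-10b was 0.0539, with changes of -5.83 and -4.84. In these bulk samples, fewer cells of a type and less RNA per cell cannot be told apart.

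The repeated hairpins in an intron of Sfmbt2, an imprinted gene on chromosome 2 whose microRNAs are abundant in placenta, fell in all 12 members of the list. Their median log2 fold change was -3.98, or -4.90 with the 4 hairpins at 0 reads in the E8.5 group set at their bound. The 12 became members through E7.5 alone, so neither their count nor their median supports a fall of the list as a whole. They summed to 1541 and 1353 normalized counts at E7.5 and to 27.6, 19.99 and 29.3 at E8.5. The labels do not say whether extra-embryonic tissue was removed from the embryos, and its part in the result was not tested. Many of these hairpins are near-identical, so how their reads were divided is uncertain.

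mir-669c was the most abundant, at 850.0 and 492 normalized counts at E7.5 and 5.51, 7.11 and 8.49 at E8.5. Both embryos were far above all E8.5 libraries (log2 fold change -6.35 ± 1.13, adjusted p = 8.94e-04). mir-467e had 321 and 331 against 5.51, 6.10 and 6.18 (-5.56 ± 0.80, adjusted p = 1.38e-04). mir-467c had 159 and 226 against 7.35, 2.71 and 6.43 (-4.96 ± 1.01, adjusted p = 0.00244), and mir-466d 55.1 and 72.8 against 0, 0.678 and 3.34 (-5.05 ± 0.90, adjusted p = 8.94e-04). These 4 calls held in every leave-out and alternative fit.

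The let-7 family was lower in all 12 members by sign, with a median log2 fold change of -3.69, but only 2 passed. All 12 had non-overlapping libraries, against 38.8% of tested hairpins that were lower with no overlap. The 14 let-7 hairpins in the table summed to 13098 and 3271 normalized counts at E7.5 and to 516, 552 and 595 at E8.5. As a share of reads this was 18.9% and 4.69% at E7.5 and between 1.15% and 1.31% at E8.5. The family was thus several times higher in E7.5 replicate 1 than in replicate 2, the opposite of the miR-302 hairpins.

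let-7e had 289 and 73.2 normalized counts at E7.5 and 11.0, 8.47 and 10.03 at E8.5 (log2 fold change -3.76 ± 0.74, adjusted p = 0.00184). mir-98, named after its values were seen and a member through E7.5 alone, had 141.4 and 24.2 against 7.35, 3.39 and 1.29 (-3.77 ± 1.14, adjusted p = 0.0322). Without E7.5 replicate 1 these were at -2.78 and -2.52 with adjusted p of 0.0539 and 0.400. The mir-98 call also ended without E8.5 replicate 2 (0.0825) or 3 (0.113) and under TMM (0.0676).

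let-7c-1, the most abundant member at E7.5, had 1908 and 451.2 normalized counts there and 69.8, 49.5 and 69.2 at E8.5. Its change of -3.88 ± 1.77 did not pass (adjusted p = 0.164). Neither did let-7b (-4.10 ± 1.71, adjusted p = 0.125) or let-7f-2 (-3.70 ± 1.25, adjusted p = 0.0559). All 3 passed in edgeR's quasi-likelihood test on recovered reads (adjusted p = 0.00372, 0.00215 and 0.00411), in which 26.4% of tested hairpins passed. Both edgeR and DESeq2 called all 12 members of the family lower.

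mir-99b and mir-125a, known to lie with let-7e in 1 cluster (let-7e to mir-125a in Spaca6 at chr17:17830352-17830879, plus strand), fell as well. mir-99b had 652 and 429.3 normalized counts at E7.5 and 73.5, 55.6 and 66.9 at E8.5 (log2 fold change -3.01 ± 0.40, adjusted p = 7.28e-05). mir-125a had 352 and 321 against 62.5, 40.7 and 51.7 (-2.70 ± 0.60, adjusted p = 0.00435). Both were called in every alternative, and both embryos were alike in mir-125a while let-7e differed between them. Of the 6 members of the miR-99, miR-100 and miR-125 families, the other 4 did not pass, and the median was -1.19.

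mir-21a, in an exon of Vmp1 and known from many growing and injured tissues, had 4384 and 1012 normalized counts at E7.5. At E8.5 it had 311, 374 and 329.6, all below both embryos (log2 fold change -2.64 ± 0.59, adjusted p = 0.00435). Without E7.5 replicate 1 it stood at -1.58 with an adjusted p of 0.121.

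The miR-181 family, known from lymphocytes, was lower in 5 of 5 members by sign and 3 passed (median log2 fold change -2.64). Of these members, mir-181b-2, which passed, and mir-181d, which did not, entered through E7.5 alone, so their falls are partly fixed by that choice. mir-181a-1 had 410.2 and 53.1 normalized counts at E7.5 and 20.2, 32.2 and 20.3 at E8.5 (-2.60 ± 0.79, adjusted p = 0.0324). mir-181a-2 had 366.5 and 45.4 against 20.2, 23.4 and 16.7 (-2.64 ± 0.86, adjusted p = 0.0451), and mir-181b-2 195.5 and 21.2 against 7.35, 9.49 and 5.66 (-2.98 ± 0.83, adjusted p = 0.0193). E7.5 replicate 1 was the highest library in each, and without it the log2 fold changes were only -1.13, -1.15 and -1.41 (adjusted p = 0.572, 0.638 and 0.452). The calls also ended under TMM (0.111, 0.131 and 0.0676), without E8.5 replicate 1 (0.0948, 0.102 and 0.0513) and without replicate 3 (0.0881, 0.113 and 0.0634). Without E8.5 replicate 2, the 2 mir-181a copies were at 0.0521 and 0.0864.

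mir-200c, which keeps cells epithelial by repressing Zeb1 and Zeb2, had 214 and 406 normalized counts at E7.5 and 66.2, 45.7 and 80.8 at E8.5. All E8.5 libraries were lower (log2 fold change -2.22 ± 0.51, adjusted p = 0.00521). The call ended without E7.5 replicate 2 (0.0772) and under TMM (0.0912). The 6 epithelial members summed to 541.2 and 1000.2 normalized counts at E7.5 against 252 ± 33.0 (SD, n = 3) in the E8.5 cells, and mir-200c was the only one that passed. By sign 5 of the 6 were lower and mir-205 was higher (0.27, adjusted p = 0.951). Only 3 of the 6 had non-overlapping libraries. mir-200b had 243 and 441 against 91.9, 117 and 147 (-1.48 ± 1.23, adjusted p = 0.511).

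mir-145a and mir-143, known from smooth muscle, were low at E8.5. The former became a member through E7.5 alone, so its call is partly fixed by that choice. mir-145a had 29.1 and 17.2 normalized counts at E7.5 and 1.84, 1.36 and 1.03 at E8.5 (log2 fold change -3.30 ± 0.70, adjusted p = 0.00309, and 0.0539 without E7.5 replicate 1). mir-143 had 686 and 153 against 69.8, 30.5 and 37.3 (-2.88 ± 1.43, adjusted p = 0.208), with E7.5 replicate 1 again the highest. Of the alternatives, mir-143 passed only in edgeR (adjusted p = 0.00791), DESeq2 (0.00134) and 3 limma fits. These were a pseudocount of 10 (0.0345), the 5 libraries (0.0305) and WT alone (0.00425). The 3 vascular members summed to 952 and 207 at E7.5 and to 126.8, 66.4 and 57.1 at E8.5. mir-23b had 227 and 240.4 against 62.5, 46.7 and 64.3 (-2.01 ± 0.55, adjusted p = 0.0189), with the embryos level. Its call ended without E7.5 replicate 1 (0.0960) or 2 (0.0793), without E8.5 replicate 2 (0.0732) and under TMM (0.108).

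The cluster of miR-183, miR-96 and miR-182, known from sensory organs, stayed among the abundant hairpins at both stages (chr6:30165918-30169737, minus strand). mir-182 had 2288 and 2767 normalized counts at E7.5 and 671, 811 and 1134 at E8.5 (log2 fold change -1.56 ± 0.47, adjusted p = 0.0322). Its call ended without E7.5 replicate 1 (0.103) or 2 (0.144), without E8.5 replicate 1 (0.112) or 2 (0.0879), and under TMM (-1.01, 0.292). mir-183 had 1831 and 2502 against 1204, 719 and 915 (-1.21 ± 0.45, adjusted p = 0.0849). For both, all E8.5 libraries were below both embryos.

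mir-7a-1 and mir-7a-2, known from neuroendocrine cells and named after their values were seen, share a mature sequence. mir-7a-1 lies in an intron of Hnrnpk and had 662 and 516 normalized counts at E7.5 and 137.8, 176 and 233 at E8.5 (log2 fold change -1.71 ± 0.36, adjusted p = 0.00309, and 0.144 under TMM). mir-7a-2 had 447 and 384 against 105, 139 and 179 (-1.58 ± 0.43, adjusted p = 0.0179). That call ended without any 1 of E7.5 replicates 1 and 2 (0.121 and 0.0527) and E8.5 replicates 1 and 2 (0.0769 and 0.0521), and under TMM (0.234). The Dlk1-Dio3 imprinted region, with 42 members, had 0 called in limma (2 at an unadjusted p under 0.05, 0 in edgeR and 1 in DESeq2) and a median of -0.41, near that of all tested hairpins. Its members summed to 5486 and 10414 at E7.5 and to 4914, 4340 and 4683 at E8.5. mir-541, its most abundant, had 955 and 2103 against 583, 739 and 895 (-0.96 ± 0.55, adjusted p = 0.289).

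Several hairpins of chromosome X were counted in both embryos and in none of the E8.5 libraries. They are named after their values were seen and became members through E7.5 alone, so the bounds and p-values below describe a difference that this choice partly fixes. The miR-465, miR-470 and miR-871 hairpins are known from testis. mir-465c-1 had 38.5 and 60.4 normalized counts (239 reads) at E7.5 and 0 reads in the 3 E8.5 libraries. Against a floor of 3 reads over the E8.5 group it was at least 126.3-fold lower (adjusted p = 7.94e-07). The copy mir-465c-2 had identical values in all 15 libraries.

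mir-465b-1 had 39.0 and 55.6 normalized counts at E7.5 and was at least 120.0-fold lower (adjusted p = 7.94e-07). mir-465a had 24.4 and 39.5 and was at least 81.9-fold lower (1.06e-06), mir-871 had 36.4 and 35.5 and was at least 88.3-fold lower (1.21e-05), and mir-470 had 20.8 and 11.0 and was at least 37.0-fold lower (4.76e-06). DESeq2 on recovered reads, which called 30.4% of tested hairpins, did not call mir-470 (adjusted p = 0.340), whose second highest of the 5 values, 11.0, lay just inside the limit for members. mir-299a and mir-328 also lay just inside at 11.0, while mir-8114, mir-1198 and mir-345 lay just outside at 9.88, 9.82 and 9.52. mir-672, within Nexmif, kept a few reads, with 58.2 and 39.9 against 0, 1.36 and 2.83 (log2 fold change -4.56 ± 1.04, adjusted p = 0.00513, and 0.0559 without E7.5 replicate 1). In all, 9 of the 34 chromosome X members with a RefSeq entry were called, against 20.5% of members and 18.4% of hairpins tested. Each of these 9 became a member through E7.5 alone, and 5 of them are neighbouring miR-465 hairpins. The count therefore says nothing about chromosome X as a whole.

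In the neural, epithelial, muscle, vascular, mesenchymal and endoderm and liver lists, limma called mir-219a-2 higher, mir-200c and mir-145a lower, and no other member. Of the 12 neural members, the 1 called in limma compares with 3 at an unadjusted p under 0.05, 5 called higher in edgeR and 3 in DESeq2, and the median log2 fold change was 0.14. Over all tested hairpins, edgeR called 26.4% and DESeq2 30.4%. The edgeR calls were the 3 copies of mir-124 and the 2 of mir-219a, which limma also called higher in KO. Of these, mir-124-2 and the 2 mir-219a copies, which are the DESeq2 calls, became members through E8.5 alone. Their calls are thus partly fixed by that choice. The neural members summed to 471 and 317 normalized counts at E7.5 and to 499.9, 479 and 384 at E8.5. The most abundant neural members, mir-128-1, mir-128-2, mir-218-1 and mir-218-2, had log2 fold changes of -0.68, -0.19, 0.02 and 0.27, none of them called. Outside the naming rule, mir-124-1, the neuronal microRNA, had 20.8 and 11.3 against 68.0, 35.2 and 31.4, whereas mir-9-1 had 33.3 and 21.96 against 14.7, 32.2 and 16.7. The first did not overlap and the second did, and neither passed in limma.

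The 4 mesenchymal members summed to 170.0 and 69.5 normalized counts at E7.5 and to 123, 152 and 80.3 at E8.5, with 0 called in limma, edgeR or DESeq2 and 0 at an unadjusted p under 0.05. In WT Sox10+ cells at E9.5 the same sum was 1645 and 1499. The blood list, of which 5 hairpins had no read in any of the 5 libraries and none was a member, summed to 13.5 ± 2.16 at E7.5 (SD, n = 2) and to 3.68, 1.69 and 1.54 at E8.5. The 5 endoderm and liver members had 0 called in limma (1 at an unadjusted p under 0.05, 1 in edgeR) and summed to 217.8 and 172 against 181.9, 149.7 and 134.3. The only muscle member did not pass either. The part of other cell types in the differences between the stages was not tested.

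**Figure D4:**
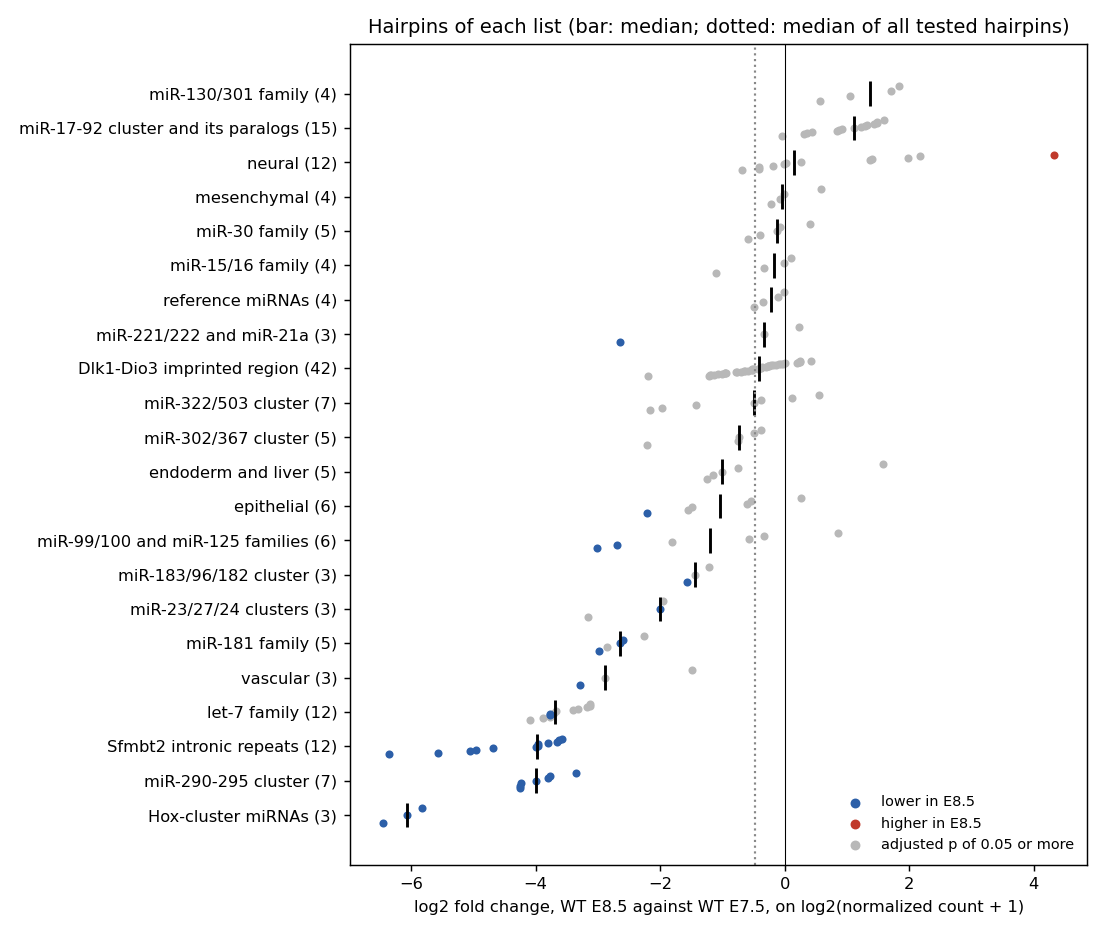
Log2 fold change of WT E8.5 against WT E7.5 (x axis) for the members of 22 lists (y axis, number of members in brackets); each point is a hairpin, coloured by the limma test, bars are list medians and the dotted line is the median of all tested hairpins, -0.48. The Hox-cluster, miR-290 and Sfmbt2 lists are wholly blue, while the miR-17-92 list lies to the right with no call.

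The same stages were compared in KO libraries, which the WT values do not use, although both genotypes share one estimate of the spread. In the deposited headers the WT and KO E7.5 columns all carry 1 number code, and 1 WT and 1 KO column of E8.5 share another, so a shared source of these libraries cannot be told from the headers. The targeted mir-302b stood at 4.77 and 7.67 normalized counts in E7.5 KO embryos and at 11.0, 2.14, 19.3 and 0 in E8.5 KO cells, below every WT library of these stages. In KO, 31.1% of tested hairpins passed, 10.4% higher and 20.7% lower, and 82 of the 244 members. Of these, 37 were also called in WT, each in the same direction, which is 74% of the WT calls and 45.1% of the KO calls. All 50 hairpins called in WT had the same sign in KO. Most members were below 0 in WT (172 of 244), and the median over all tested was -0.48 in WT and -0.60 in KO. The share of matching signs over all tested hairpins was not counted, so the 50 have no background to be read against. Depth in KO was 24084 and 52362 reads at E7.5 and ran from 1706 to 46082 at E8.5, so 1 read was worth up to 19.3 normalized counts.

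mir-335 had 16.7 and 164 normalized counts in E7.5 KO embryos and 1029.9, 918, 1121 and 791 in E8.5 KO cells (log2 fold change 4.15 ± 0.64, adjusted p = 2.00e-04). mir-92b had 2.38 and 54.8 against 1069, 860.4, 1237 and 1048 (6.25 ± 0.78, adjusted p = 3.42e-05). Both rose in KO as in WT, with no overlap between stages. The stage change of mir-92b was 3.71 larger in KO, which did not pass as a difference (adjusted p = 0.193).

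mir-292a had 3339 and 1671 normalized counts in E7.5 KO embryos and 105.7, 46.4, 193 and 67.2 in E8.5 KO cells (log2 fold change -4.71 ± 0.71, adjusted p = 1.59e-04). All 7 miR-290 members were called lower in KO as well. mir-181a-1, by contrast, had 179 and 70.1 in E7.5 KO embryos and 44.2, 174, 77.3 and 123 in E8.5 KO cells, where the stages overlapped (-0.27 ± 0.75, adjusted p = 0.800). Its stage change differed from that in WT by 2.32, which did not pass (adjusted p = 0.580). For mir-99b the difference was 1.81 (adjusted p = 0.193).

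The difference of the stage change between the genotypes passed for 0.669% of tested hairpins, mir-297a-3 and mir-297b, which are members. They are closely related Sfmbt2 hairpins named after their values were seen. Of the 15 libraries only the 2 E7.5 WT embryos reached 10 in either, so both entered the test through the group in which they were high, and without the filter neither passed (adjusted p = 0.102 for mir-297b and 0.192 for mir-297a-3). mir-297b had 11.4 and 11.7 normalized counts in E7.5 WT embryos, 0 and 1.10 in E7.5 KO embryos, and 0 reads in all 7 E8.5 libraries of both genotypes. mir-297a-3 had 16.6 and 12.8, 0 and 2.19, and 0 likewise. The differences were 3.12 and 3.13 (adjusted p = 0.0228 and 0.0470), with 21 hairpins at an unadjusted p under 0.05, and neither edgeR nor DESeq2 called any hairpin. Both calls ended when any 1 of the WT libraries of these stages, E7.5 KO replicate 1 or any 1 of the E8.5 KO libraries was left out (adjusted p between 0.0578 and 0.306), and held without E7.5 KO replicate 2.

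**Figure D5:**
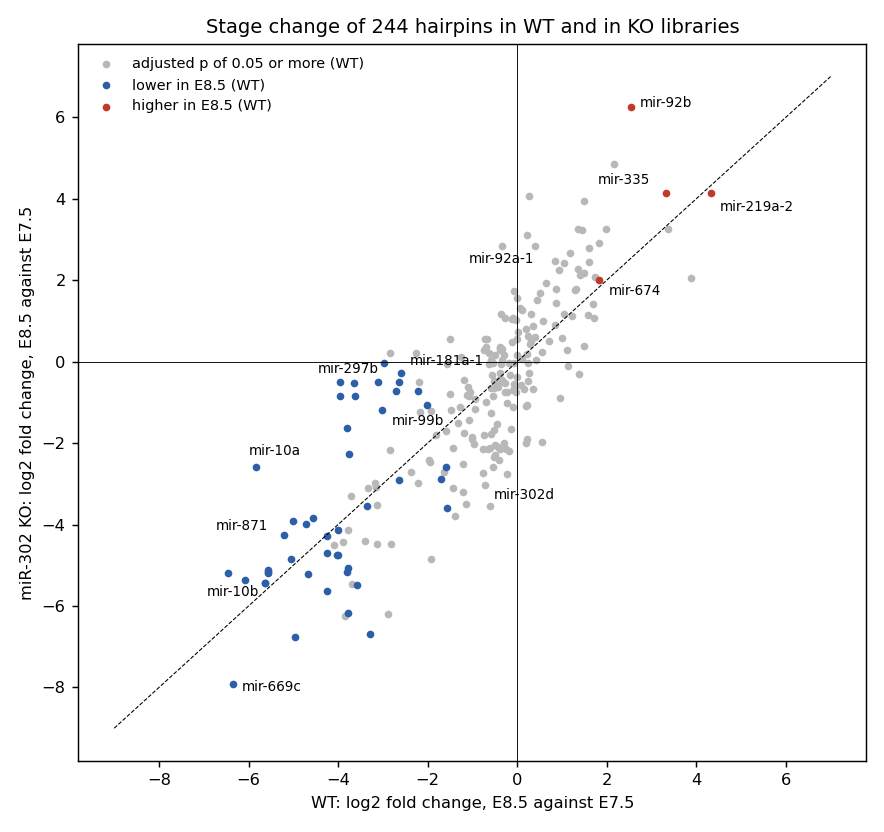
Log2 fold change of E8.5 against E7.5 in WT libraries (x axis) and in KO libraries (y axis) for the 244 hairpins; each point is a hairpin coloured by its WT test, and the dashed line marks equal changes. All 50 coloured points have the same sign on both axes, and mir-181a-1, mir-99b and mir-297b lie nearer to 0 in KO than in WT.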

How the data were processed

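Small RNA libraries were made with 15 samples in 6 groups. Per the submitters' processing notes, FastQC 0.11.5 was used for quality checks and STAR 2.7.0f for alignment to mm10. How reads were counted and where the size factors came from is not given in the sources used here. Each deposited signal is a normalized count per hairpin, for which the authors scaled reads by 1 factor per library. All 6086 values above 0 were whole multiples of what 1 read was worth (100%, within 0.001), so reads were recovered from the authors' deposited values. Of 3337 entries, the 2108 named for a mature arm were at 0 throughout, and 1229 hairpin entries with 3 repeated names left 1226 hairpins. In the deposited sheets, 1 column of values matched no sample and was not used, nor were sheets of means, fold changes or subsets. Sequences and positions came from RefSeq and the annotation of GRCm38.p6.

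Hairpins with at least 10 normalized counts in at least 2 of 15 libraries were tested (299), with limma 3.58.1 in R 4.3.3 (lmFit, eBayes with trend, two-sided) on log2(normalized count + 1), 6 group means and Benjamini-Hochberg adjustment at 0.05. Fold changes on this scale understate those of hairpins near 0. Alternatives were edgeR 4.0.16 (quasi-likelihood) and DESeq2 1.42.0 on recovered reads, TMM and library-sum scaling, TMM without the miR-302 cluster, no filter, a minimum of 50, only members tested, a pseudocount of 10, fits on 5 libraries or on WT alone, a replicate block, and each library left out. Single values were compared with exact permutation tests (scipy 1.17.1). The scripts were tested on simulated data. No libraries were merged, since the chi-square of each replicate pair was 6.61 to 171 times its degrees of freedom. By name, 52 members belong to 25 families of numbered copies, between which reads may be split. In the deposited headers the E7.5 columns of both genotypes carry the same number code and the E8.5 WT columns carry one each, 1 of them shared with an E8.5 KO column, with no meaning given.

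The members and the lists were chosen with earlier results of these data known. The text names up to 15 highest and 15 lowest called hairpins with no overlap and a mean of at least 100 in the higher group, the 10 most abundant at each stage, all miR-302 cluster hairpins and up to 4 of each list. That rule names 92 hairpins, of which those on which the results turn are described. Others are said to be named after their values were seen.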

Additional observations from a re-analysis of the deposited data

Results flagged for a closer look

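The stage change of mir-297a-3 and mir-297b differed between the genotypes by the test of the difference itself, by 3.13 and 3.12 on the log2 scale, as KO minus WT. Both rest on 67 and 54 reads in the E7.5 WT embryos, the only libraries in which they reached the minimum for testing. The adjusted p was 0.0552 and 0.0491 under TMM, and 0.109 and 0.0720 under library-sum scaling.

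In mir-196b, 1 of the 4 E8.5 KO libraries stood apart, replicate 1 at 1.58 normalized counts, which is 1 read, with the other 3 at 0. This comparison of a library with its group was run on 13 hairpins in groups of 4. Where 1 library holds the only reads, the flag follows from the arithmetic and says nothing about that library. The nominal rate of about 1 in 20 groups flagged by chance does not hold for counts this low. Groups of 2 and 3, and thus all WT libraries compared here, were too small for it.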

How the results depend on the processing

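Of 57 hairpins followed through the alternatives, 37 were called and 14 of them kept the call in each fit run. Over 623 fits of called hairpins, 111 ended a call and 0 reversed a direction, and 50 fits of the 20 uncalled ones passed. Among all tested, the called hairpins numbered 55, and 91 in DESeq2, 35 with a minimum of 50, 83 on the 5 libraries, 102 on WT alone and 34 to 51 with a library left out. Those higher at E8.5 numbered 4, and 9 under TMM with or without the miR-302 cluster, 14 under library-sum scaling, 15 in edgeR, 16 in DESeq2, 13 on the 5 libraries, 20 on WT alone and 0 to 7 with a library left out. Those lower numbered 51, and 31 with a minimum of 50, 82 on WT alone and 34 to 44 with a library left out. Without filter 70 were called and with a pseudocount of 10, 67. The difference between genotypes passed for 2, and for 1 under TMM, 0 under library-sum scaling, in edgeR, in DESeq2, with a minimum of 50 and without E8.5 KO replicates 2 and 3 (an alternative chosen after seeing the data), 4 without filter, on members alone or with a pseudocount of 10, and 0 to 15 with a library left out. The number of hairpins in the KO comparison stayed within 1.5 times its value in the alternatives run.

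mir-302a turned to 0.057 under TMM, 0.15 under library-sum scaling and 0.036 under TMM without the cluster, and mir-302b to 0.17, 0.26 and 0.15. With a library left out mir-302a ran from -1.29 to 0.29, mir-302b from -1.31 to 0.54, mir-302c from -1.74 to 0.24 and mir-302d from -1.68 to 0.23. The miR-302 seed share ran from -10.1 to 4.16 percentage points, and was -5.21 with mir-302a and mir-292a added and -5.29 with mir-302c as well, alternatives chosen after seeing the data. The cause of these changes was not tested.

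With the replicate number as a block, 48 hairpins were called, 5 higher and 43 lower, and 0 for the difference between genotypes. WT samples of the 2 stages with the same number, 1 or 2, did not deviate together (correlation of deviations 0.08 and -0.02). The deviations of the 2 E7.5 libraries from their mean mirror each other, so these are not separate checks. A pairing by number can therefore not be excluded. With 24465 reads, E8.5 replicate 1 limits low hairpins most, since 1 read there was worth 1.84 normalized counts.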

Other observations

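The family of miR-130 and miR-301, the miR-30 family and the cluster of miR-322 and miR-503 had 0 called members in WT in limma or edgeR, and in DESeq2 2, 0 and 3. At an unadjusted p under 0.05 limma had 0, 0 and 3. mir-130b had 113 and 109 normalized counts at E7.5 and 292.2, 234 and 180.9 at E8.5, with no overlap (log2 fold change 1.05 ± 0.50, adjusted p = 0.175). All 4 members of its family were above 0, with a median of 1.38. mir-322 had 111 and 41.4 at E7.5 and 14.7, 24.1 and 12.9 at E8.5 (-1.97 ± 0.73, adjusted p = 0.0849), whereas mir-375, known from pancreatic islets, had 33.8 and 13.5 against 114, 56.6 and 45.5 (1.59 ± 0.73, adjusted p = 0.169). The 5 miR-30 hairpins summed to 2856 and 1507 at E7.5 and to 1512, 1773 and 1487 at E8.5, within the spread of the embryos or level with the lower one. mir-100 had 16.6 and 6.59 against 31.2, 29.1 and 8.49, so that its groups overlapped, while mir-99b of the same family fell.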
